A study of Mus musculus with 39 samples.

Results

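Transcripts of 10 genes of branched-chain amino acid breakdown were followed in muscle and fat of mice that had eaten a juvenile diet of 2 kinds and were collected fed or fasted. The genes were taken by symbol for their place in the pathway (Bcat2, Bckdha, Bckdhb, Dbt, Dld, Bckdk, Ppm1k, Ivd, Aldh6a1 and Hibadh), and the choice used no measured value as a threshold. All 10 were found among the 45232 gene identifiers of the count data, of which 44585 had a symbol, and all 10 passed the filter on low counts in both tissues. RNA was sequenced from quadriceps muscle and from tissue labelled epididymal white adipose tissue (eWAT, the fat pad beside the epididymis) of male C57BL/6J mice aged 22 weeks. During weeks 6 to 7 fat supplied 10% of the energy of the control diet (CD) and 45% of that of the high-fat diet (HFD). Chow was eaten before and after that week, and from week 10 every mouse, controls included, ate the same HFD, so no group represents lean adults. Fasted mice went without food for the last 16 h. Quadriceps gave 6 fasted and 4 fed libraries after each juvenile diet. Tissue labelled eWAT gave 6 fasted and 4 fed libraries after CD, and 5 fasted and 4 fed after HFD. Whether every library is a different mouse is not stated in the labels, and p-values then describe only the variation among these samples, which may be technical.

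Leucine, isoleucine and valine are the branched-chain amino acids. A mitochondrial transaminase (Bcat2) first turns them into keto acids, which the branched-chain keto acid dehydrogenase complex then decarboxylates in an irreversible step. The complex has an E1 decarboxylase of alpha and beta subunits (Bckdha, Bckdhb), an E2 transacylase core (Dbt) and an E3 dihydrolipoamide dehydrogenase (Dld) that also serves the pyruvate and 2-oxoglutarate dehydrogenases and glycine cleavage. A kinase (Bckdk) switches the complex off by phosphorylating the E1 alpha subunit, and a mitochondrial phosphatase (Ppm1k) switches it on. Beyond the complex the routes divide: isovaleryl-CoA dehydrogenase (Ivd) acts on the leucine branch, and 3-hydroxyisobutyrate dehydrogenase (Hibadh) and methylmalonate semialdehyde dehydrogenase (Aldh6a1) act on the valine branch. Skeletal muscle is known as a main site of the transamination, fat also breaks these amino acids down, and liver is known for low transaminase and high dehydrogenase activity.

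Several libraries stood apart from their labels or their group. Between 6199586 and 14993394 reads were counted per library. In 13 of the 19 libraries labelled eWAT a sum of 24 epididymis markers lay between 21149 and 71902 CPM (read counts divided by library size), against 8.78 to 52.7 CPM in the other 6 and at most 1.68 CPM in quadriceps. After CD these were 4 of 4 fed and 3 of 6 fasted libraries, and after HFD 2 of 4 fed and 4 of 5 fasted ones, so this difference is not even over the groups. A sum of 10 hepatocyte markers reached 143481 CPM in eWAT HFD fasted replicate 4, and its next value was 35848 CPM in CD fasted replicate 1. The 4 defining adipocyte markers (Adipoq, Plin1, Cfd and Retn) were all present in each library labelled eWAT, with sums from 495 to 23096 CPM, and the HFD fasted replicate 4 with its liver transcripts stood at 802 CPM. A sum of 9 testis markers reached 12950 CPM in eWAT HFD fasted replicate 1 and 2839 CPM in CD fed replicate 1, against at most 422 CPM in the other libraries. Quadriceps libraries were uniform in fast fibre markers (195978 to 304068 CPM over 11 genes) but not in slow fibre markers, whose sum over 6 genes ran from 5.61 to 2103 CPM. Quadriceps CD fed replicate 3 held that highest slow fibre sum and a hepatocyte sum of 638 CPM, where the other quadriceps libraries held at most 81.7 CPM. The common coefficient of biological variation was 0.203 in quadriceps and 0.779 in eWAT.

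In quadriceps, fasting raised Bckdha, Dbt, Aldh6a1 and Hibadh, the E1 alpha and E2 subunits of the dehydrogenase complex and both valine branch enzymes, by 1.18-fold to 1.52-fold. The transaminase Bcat2, the subunits Bckdhb and Dld, the kinase Bckdk, the phosphatase Ppm1k and the leucine branch enzyme Ivd did not pass the test. No member fell. Thus 4 of 10 members passed (edgeR quasi-likelihood test, adjusted p under 0.05), where 37.6% of all 12213 genes tested in quadriceps did. All 4 lay in the upward direction, in which 19.2% of all genes passed. The median log2 change over the 10 members was 0.20, beside -0.02 over all genes. In bulk tissue, fewer cells of a type and less RNA per cell cannot be told apart.

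Bckdha, the phosphorylated subunit of the complex (ENSMUSG00000060376, GRCm38 chromosome 7, 25629946 to 25658981, minus strand), stood at 158, 163, 176 and 188 CPM in the CD fed libraries and at 158, 159, 173 and 204 CPM in the HFD fed ones. CPM here are scaled by the TMM method within a tissue. In CD fasted quadriceps it ran from 199 CPM through a median of 246 to 285 CPM, and in HFD fasted from 213 through 248 to 290 CPM. Of the 12 fasted libraries 11 lay above all 8 fed ones, and within each juvenile diet the fasted and fed libraries did not overlap. The share of all genes that separate 6 fasted from 4 fed libraries within a diet was not computed, here or for the genes below. Averaged over juvenile diets, Bckdha rose 1.43-fold (log2 0.51 ± 0.08 SE, edgeR adjusted p = 1.83e-05). Its exons share 1171 of 1899 bases with the opposite-strand gene B3gnt8, to which 870 reads were assigned over all 39 libraries. Since the strand setting of the counting is not given in the sources used here, the counts may mix reads of both genes or leave out reads over the shared bases.

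Dbt, the E2 core (ENSMUSG00000000340, chromosome 3, 116513070 to 116549981, plus strand), showed the largest fold of the 10 members. The CD fed libraries stood at 12.5, 14.0, 19.6 and 20.6 CPM and the HFD fed at 14.6, 15.2, 17.1 and 22.8 CPM. Fasted libraries ran from 17.9 through 25.1 to 26.5 CPM after CD and from 22.1 through 26.7 to 37.7 CPM after HFD. In all, 10 of the 12 fasted libraries lay above every fed one, and the lowest of the fasted was CD fasted replicate 1. The average rise was 1.52-fold (log2 0.60 ± 0.12 SE, edgeR adjusted p = 0.000167).

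Both enzymes of the valine branch were also called. Aldh6a1 (ENSMUSG00000021238, chromosome 12, 84430717 to 84451004, minus strand), which makes propionyl-CoA from methylmalonate semialdehyde, stood at 65.0, 78.6, 86.0 and 93.6 CPM in CD fed and at 77.9, 81.2, 88.8 and 93.7 CPM in HFD fed libraries. Fasted libraries ran from 113 through 131 to 137 CPM after CD, above all 4 fed ones, and from 92.3 through 106 to 160 CPM after HFD. The highest of these was HFD fasted replicate 6. Aldh6a1 rose 1.44-fold (log2 0.53 ± 0.09 SE, edgeR adjusted p = 4.39e-05). It shares 1078 exonic bases with the opposite-strand Bbof1, which had 1119 reads over all libraries, so the limit named for Bckdha applies here too. Hibadh (ENSMUSG00000029776, chromosome 6, 52546228 to 52640389, minus strand), the dehydrogenase that precedes it, stood at 81.5, 92.8, 97.7 and 106 CPM in CD fed and at 71.6, 80.1, 85.1 and 94.7 CPM in HFD fed libraries. Its fasted values were 86.3 through 107 to 115 CPM after CD and 92.4 through 105 to 118 CPM after HFD. Fed and fasted libraries overlapped widely, with 6 of 12 fasted above all fed ones. The rise of Hibadh was the smallest called, at 1.18-fold (log2 0.23 ± 0.08 SE, edgeR adjusted p = 0.0207). Without CD fed replicate 1 it missed the threshold (edgeR adjusted p = 0.0545), and likewise without HFD fed replicate 3 (edgeR adjusted p = 0.0578).

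**Figure D1:**
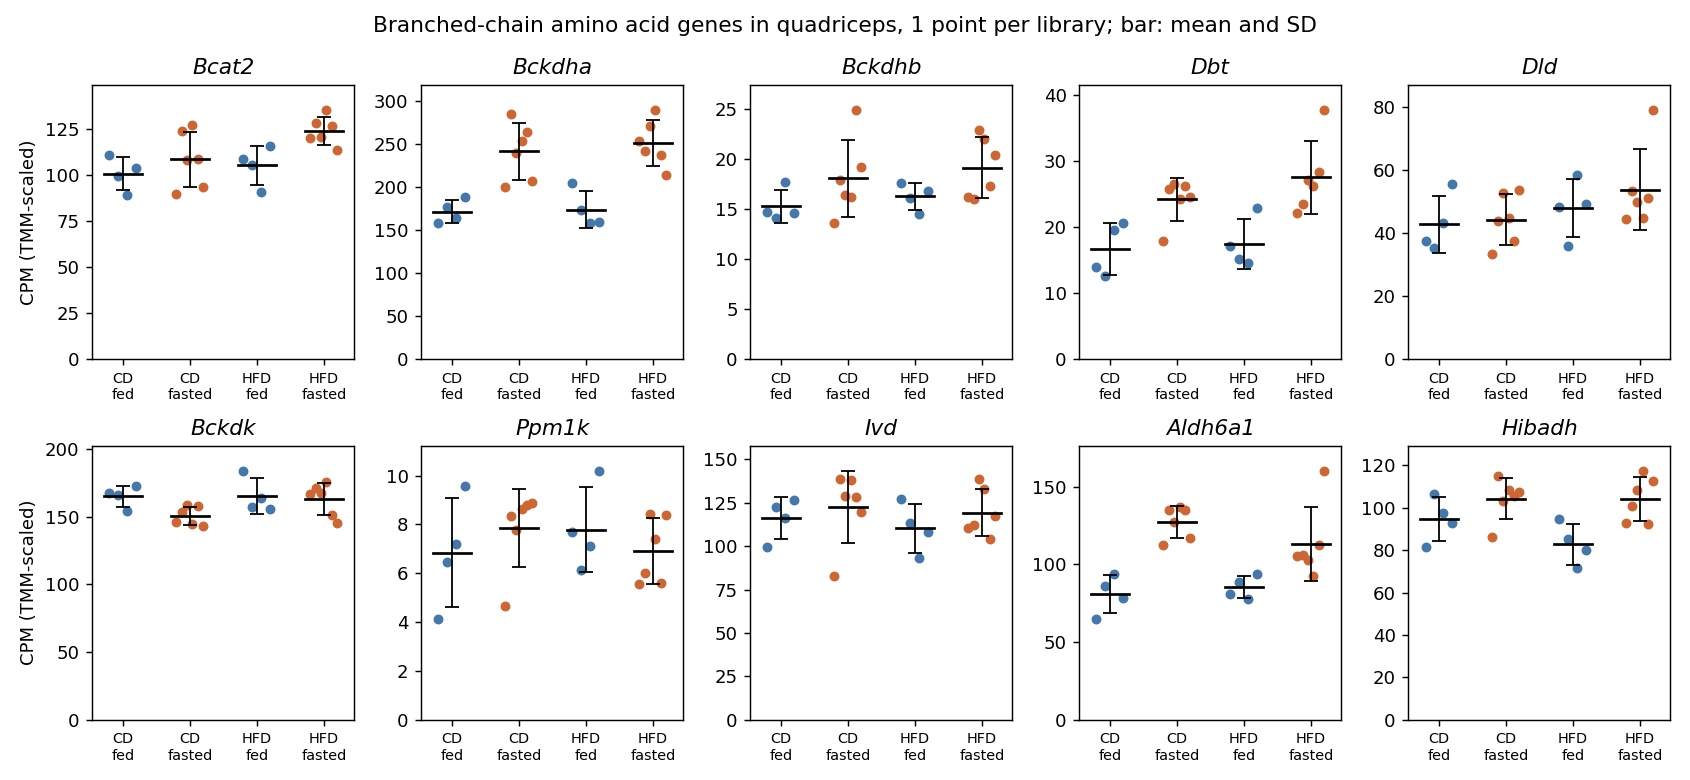
TMM-scaled CPM of the 10 genes in quadriceps (vertical axis, from 0), by juvenile diet and feeding state. Each point is 1 library (blue fed, orange fasted), with the group mean and SD as bars; fasted Bckdha lies between 199 and 290 CPM against 158 to 204 CPM in fed muscle, while Bckdk and Ppm1k overlap.

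The 6 members that were not called differed among themselves. Bcat2, the transaminase (ENSMUSG00000030826, chromosome 7, 45570153 to 45589711, plus strand), had medians of 105 CPM in fed and 120 CPM in fasted libraries (log2 0.17 ± 0.08 SE, edgeR adjusted p = 0.0882). It shares 622 exonic bases with the opposite-strand 0610005C13Rik, which has no entry in the count data. Bckdhb, the E1 beta subunit (ENSMUSG00000032263, chromosome 9, 83925145 to 84124240, plus strand), had medians of 15.4 and 17.6 CPM (log2 0.23 ± 0.10 SE, edgeR adjusted p = 0.0763). Bckdhb passed when CD fasted replicate 1 was left out (edgeR adjusted p = 0.0373) and when CD fed replicate 3 was (edgeR adjusted p = 0.0415). The estimate for Bckdhb was thus less than that for its E1 partner Bckdha, although the difference between subunits was not tested. Dld (ENSMUSG00000020664, chromosome 12, 31331277 to 31351453, minus strand) had medians of 45.8 and 47.4 CPM (log2 0.11 ± 0.12 SE). Ivd (ENSMUSG00000027332, chromosome 2, 118861954 to 118882909, plus strand) had medians of 115 and 124 CPM (log2 0.10 ± 0.09 SE), and CD fasted replicate 1 was again its lowest library, at 83.0 CPM.

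The regulators of the complex gave estimates near 0. Bckdk, the kinase (ENSMUSG00000030802, chromosome 7, 127904082 to 127910221, plus strand), ran from 154 to 184 CPM in the 8 fed and from 144 to 176 CPM in the 12 fasted libraries (log2 -0.08 ± 0.07 SE, edgeR adjusted p = 0.404). Its 6 CD fasted libraries, from 144 to 158 CPM, overlapped the CD fed ones, from 154 to 173 CPM. Ppm1k, the phosphatase (ENSMUSG00000037826, chromosome 6, 57506502 to 57535468, minus strand), was the rarest of the 10 transcripts, at 4.13 to 10.2 CPM in fed and 4.67 to 8.89 CPM in fasted libraries (log2 0.02 ± 0.15 SE, edgeR adjusted p = 0.944). Its sign turned when all 39 libraries were fitted together (log2 -0.04) and when single libraries were left out (from -0.07 to 0.11).

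The ratio of Bckdha to Bckdk reads within a library does not depend on scaling between libraries. On the log2 scale it lay between -0.09 and 0.12 in CD fed and between -0.05 and 0.15 in HFD fed quadriceps. In fasted quadriceps it lay between 0.45 and 0.89 after CD and between 0.50 and 0.72 after HFD. The 12 fasted and 8 fed libraries therefore did not overlap in this ratio, whereas Bckdha alone left 1 fasted library within the fed range. The ratio of the E1 subunits, Bckdha to Bckdhb, did overlap, with 3.21 to 3.68 in CD fed, 3.24 to 3.53 in HFD fed, 3.40 to 3.99 in CD fasted and 3.39 to 3.96 in HFD fasted libraries. These ratios were picked from a longer list after the values were seen and are descriptions without a test. The share of other gene ratios that separate fed from fasted libraries was not computed.

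**Figure D2:**
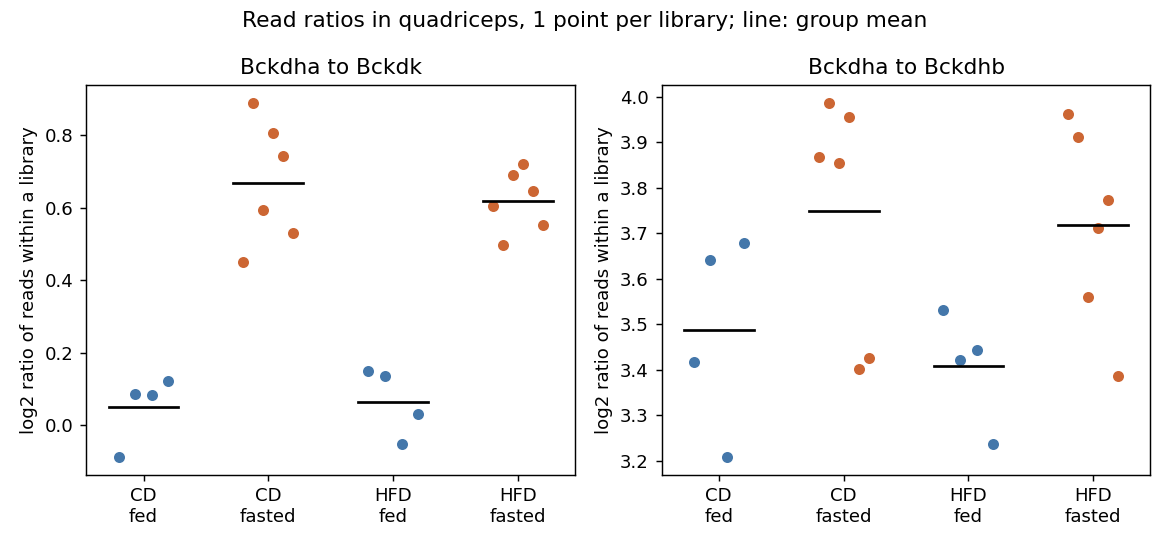
Log2 ratio of reads (vertical axis) of Bckdha to Bckdk (left) and Bckdha to Bckdhb (right) within each quadriceps library, by juvenile diet and feeding state; points are libraries and lines group means. On the left the fasted libraries start at 0.45 and the fed ones end at 0.15, and on the right the groups overlap.

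None of the 10 members separated the 12 fasted from the 8 fed libraries completely, as 6.85% of all genes did. Markers of other cells moved with some groups. The summed defining adipocyte markers ran from 26.6 to 552 CPM in CD fasted, 16.1 to 136 CPM in CD fed, 8.68 to 427 CPM in HFD fasted and 27.6 to 72.4 CPM in HFD fed quadriceps. The 4 were detected in all but 1 library, in which 1 of them was at 0. With this sum as a covariate Bckdha, Dbt, Aldh6a1 and Hibadh all remained called (log2 0.50, 0.63, 0.57 and 0.26). The summed slow fibre markers ran from 9.12 to 397 CPM in CD fasted, 5.61 to 2103 CPM in CD fed, 7.00 to 1426 CPM in HFD fasted and 16.3 to 2000 CPM in HFD fed libraries. With the slow fibre sum in the model, an alternative added after the data were seen, the same 4 genes were called (log2 0.52, 0.61, 0.53 and 0.24 in that order). In 1 fit of all 39 libraries, with a common coefficient of variation of 0.60, Aldh6a1 was the only member called (log2 0.47, edgeR adjusted p = 0.0346), with Bckdha at 0.45, Dbt at 0.54 and Hibadh at 0.18. The share of all genes called in the covariate fits and in the 39-library fit is not given here. These calls therefore do not set the members against other genes.

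The juvenile diet was next compared. After CD, fasting raised Bckdha (log2 0.49 ± 0.12 SE), Dbt (0.54 ± 0.17) and Aldh6a1 (0.65 ± 0.13), 3 of 10 members where 22.4% of all genes passed in either direction and 12.0% upward. After HFD it raised Bckdha (0.53 ± 0.12), Dbt (0.66 ± 0.17), Aldh6a1 (0.41 ± 0.13) and Hibadh (0.33 ± 0.11), 4 of 10 where 21.4% of all genes passed and 11.7% upward. Hibadh after CD was at 0.14 ± 0.11 and was not called. The difference between the responses passed for no member and no gene in edgeR (0% called). DESeq2 called 2 genes and no member, and no member had an unadjusted edgeR p under 0.05. For Aldh6a1 that difference, HFD minus CD, was -0.25 ± 0.18, and for Hibadh 0.19 ± 0.16 (edgeR adjusted p = 1.00 for both). For juvenile diet itself no member passed in edgeR as an average over feeding states (0.0246% of all genes), in fed mice (0.00819%) or in fasted mice (0%). None had an unadjusted p under 0.05 or a DESeq2 call in these 3 comparisons, and the average HFD minus CD differences were between -0.10 for Hibadh and 0.23 for Dld. Of the calls within a diet, Dbt after CD was lost without CD fed replicate 1 or 2, Aldh6a1 after HFD was lost without HFD fed replicate 1 or 3 or HFD fasted replicate 6, and Hibadh after HFD was lost without any of 6 libraries of its own groups.

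**Figure D3:**
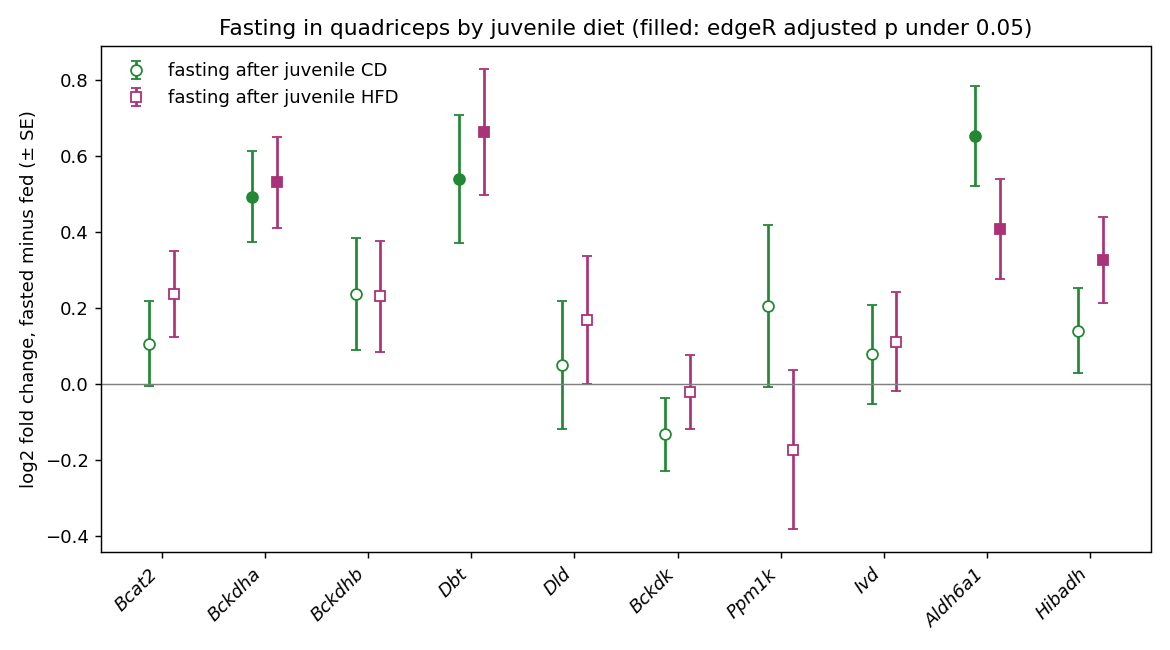
Log2 fold change of fasted minus fed quadriceps with its SE (vertical axis) for each gene, after juvenile CD (green circles) and after juvenile HFD (purple squares); filled symbols passed an edgeR adjusted p of 0.05. Bckdha, Dbt and Aldh6a1 are filled for both diets, and Hibadh for HFD with 0.33 against 0.14.

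The start regions of 3 of the 4 members called for fasting are shown, since all 4 rose. RefSeq windows (build GRCm38.p6) were matched by symbol for 9 of the 10 members, 12 windows in all, and Dbt was the member without one. Their start is that of RefSeq. The GENCODE spans given above begin, on the minus strand, at 25658981 for Bckdha and at 52640389 for Hibadh. Most of the bases printed for Bckdha and part of those printed for Hibadh therefore lie inside those spans. The 250 bases before the start are printed 5′ to 3′ on the gene's own strand, which is the minus strand for each: chr7:25658762-25659011 for Bckdha, chr12:84451025-84451274 for Aldh6a1 (the first of its 2 windows) and chr6:52640301-52640550 for Hibadh. Capitals mark matches to any of 4 motifs searched on both strands.
Bckdha: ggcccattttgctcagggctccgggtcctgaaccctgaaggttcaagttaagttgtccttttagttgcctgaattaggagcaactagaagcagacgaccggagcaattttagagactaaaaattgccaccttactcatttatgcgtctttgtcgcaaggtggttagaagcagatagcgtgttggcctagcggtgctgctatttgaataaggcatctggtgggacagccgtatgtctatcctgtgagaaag
Aldh6a1: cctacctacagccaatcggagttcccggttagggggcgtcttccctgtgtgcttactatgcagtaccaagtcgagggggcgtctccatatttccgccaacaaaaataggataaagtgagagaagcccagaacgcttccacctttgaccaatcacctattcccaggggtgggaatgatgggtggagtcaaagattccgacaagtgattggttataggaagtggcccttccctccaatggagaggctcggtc
Hibadh: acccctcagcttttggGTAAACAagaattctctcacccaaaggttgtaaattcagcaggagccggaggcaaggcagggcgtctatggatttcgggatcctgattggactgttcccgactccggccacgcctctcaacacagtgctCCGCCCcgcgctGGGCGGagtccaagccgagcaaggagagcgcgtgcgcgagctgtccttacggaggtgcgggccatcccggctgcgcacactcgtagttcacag

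The motifs were GGGCGG (a GC box of the kind that KLF and SP factors bind), CACGTG (the E-box that Mlxipl and clock factors bind), AAGGTCA (the motif of Esrra) and GTAAACA (a FoxO motif). GGGCGG occurred in windows of 3 of 9 members, Bckdhb, Hibadh and Ppm1k, and in 32.7% of all 32851 windows of the table. Hibadh held it in both orientations, starting 105 and 93 bases before the RefSeq start. It also held GTAAACA starting 234 bases before, a motif found in 3.17% of all windows. CACGTG (6.02% of all windows) and AAGGTCA (4.08%) matched no member. The upstream windows of Bckdha and Aldh6a1 held none of the 4. A match describes letters and is not evidence of binding, and the motifs do not overlap each other in these sequences.

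Other genes of the pathway were also measured. Of 18 further enzymes and carriers 17 were tested in quadriceps: 5 rose, none fell and 12 were not called, with a median log2 change of 0.12. Of all genes tested 19.2% rose and 18.4% fell. On the isoleucine branch the dehydrogenase Acadsb (0.40 ± 0.09) and the hydratase Echs1 (0.47 ± 0.12) rose, 2 of 4 genes. On the leucine branch the carboxylase subunits Mccc1 (0.06 ± 0.07) and Mccc2 (0.13 ± 0.10) and the hydratase Auh (0.20 ± 0.09) were not called. In the propionyl-CoA arm, which takes up the carbon of valine and isoleucine, the carboxylase subunit Pccb (0.22 ± 0.08) and the mutase Mmut (0.38 ± 0.10) rose, 2 of 6. Pcca, the partner of Pccb, was not called (edgeR adjusted p = 0.977). Slc25a44, the mitochondrial carrier of these amino acids, rose 1.31-fold (0.39 ± 0.08, edgeR adjusted p = 0.000153). Bcat1, the cytosolic transaminase, was at most 0.36 CPM in quadriceps and was not tested there.

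Among 7 genes that are known to regulate this pathway or mitochondrial metabolism, 1 rose and 4 fell, 5 of 7 where 37.6% of all genes passed and 18.4% fell. Klf15, a transcription factor induced by glucocorticoids that is known to act on Bcat2 in muscle, ran from 21.1 to 42.8 CPM in fed and from 64.7 to 107 CPM in fasted quadriceps, without overlap. It rose 2.42-fold (log2 1.27 ± 0.11 SE, edgeR adjusted p = 2.53e-10). The coactivators Ppargc1a (-0.82 ± 0.14) and Ppargc1b (-0.74 ± 0.24), the nuclear receptor Esrra (-0.37 ± 0.12) and the carbohydrate-responsive factor Mlxipl (-0.70 ± 0.09) fell, while Ppara and Ppard were not called. Of 8 tested subunits of other complexes that use Dld or belong with them, Dhtkd1, the E1 of a 2-oxoadipate dehydrogenase, rose (1.08 ± 0.18) and the pyruvate dehydrogenase E2 Dlat fell (-0.24 ± 0.08).

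The genes most like the complex were ranked by Pearson r with the mean standardised log2 CPM of Bckdha, Bckdhb and Dbt, over the 20 quadriceps libraries and 8409 genes. The 8 protein-coding genes at the top were Selenbp1 (0.94), Bcl2l11 (0.92), Nxpe3 (0.91), Dazap2 (0.90), Art5 (0.90), Map1lc3b (0.90), Abcb1b (0.89) and Mrpl41 (0.88). All of these rose with fasting. Since r was taken over fed and fasted libraries alike, that rise follows in part from how the genes were picked. No r within groups was computed for them. Between members, r reached 0.78 for Dbt with Aldh6a1 and 0.68 for Bckdha with Dbt. Once group means were removed these fell to 0.62 and 0.06, whereas Ivd with Hibadh, 0.77 over all libraries, stood at 0.85.

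Per length, the 10 transcripts of quadriceps spanned a wide range. RPKM, which divide CPM by exonic length in kilobases, were scaled over all 39 libraries for this purpose. That length joins all annotated exons of a gene, such as 1899 bases for Bckdha and 10179 for Hibadh. It may exceed the length of the transcripts present, so the order between genes depends in part on the annotation. The medians over 20 quadriceps libraries were 172 RPKM for Bckdha, 67.7 for Bckdk, 43.9 for Bcat2, 33.9 for Ivd, 27.5 for Aldh6a1, 19.6 for Dld, 15.1 for Hibadh, 14.1 for Bckdhb, 10.4 for Dbt and 1.92 for Ppm1k. The first 3 steps of this order held in all 20 libraries, as did Bckdhb over Dbt and Dbt over Ppm1k. Hibadh and Bckdhb were not separated, since Hibadh was the higher in only 8 of 20.

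In tissue labelled eWAT the highest levels lay in libraries poor in epididymis markers. Bcat2 stood at 368, 285, 364, 161, 80.3 and 77.4 CPM in CD fasted replicates 1 to 6 and at 109, 81.0, 88.2 and 80.7 CPM in the CD fed libraries. In HFD fasted replicates 1 to 5 it stood at 75.2, 61.1, 109, 124 and 63.9 CPM and in HFD fed replicates 1 to 4 at 94.8, 684, 605 and 90.4 CPM. CD fasted replicates 1 to 3 and HFD fed replicates 2 and 3 were low in epididymis markers, and these 5 libraries held the 5 highest values of Bcat2. Bckdha stood at 461, 387 and 402 CPM in those 3 CD fasted and at 434 and 361 CPM in those 2 HFD fed libraries, against 95.1 to 210 CPM in all 13 libraries rich in epididymis markers.

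The library with liver transcripts, HFD fasted replicate 4, had its own profile. Bckdha reached 721 CPM there, with the next of its group at 163 CPM, and Ppm1k reached 144 CPM, against 3.63 to 6.80 CPM in the other 4 HFD fasted libraries. Per length it was the highest of the 6 epididymis-poor libraries for Bckdha (243 RPKM) and Ppm1k (15.3 RPKM). It was the lowest of those 6 for Bcat2 (20.3 RPKM) and Bckdk (3.84 RPKM). The part that liver, epididymis or adipocyte RNA has in the levels was not tested.

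**Figure D4:**
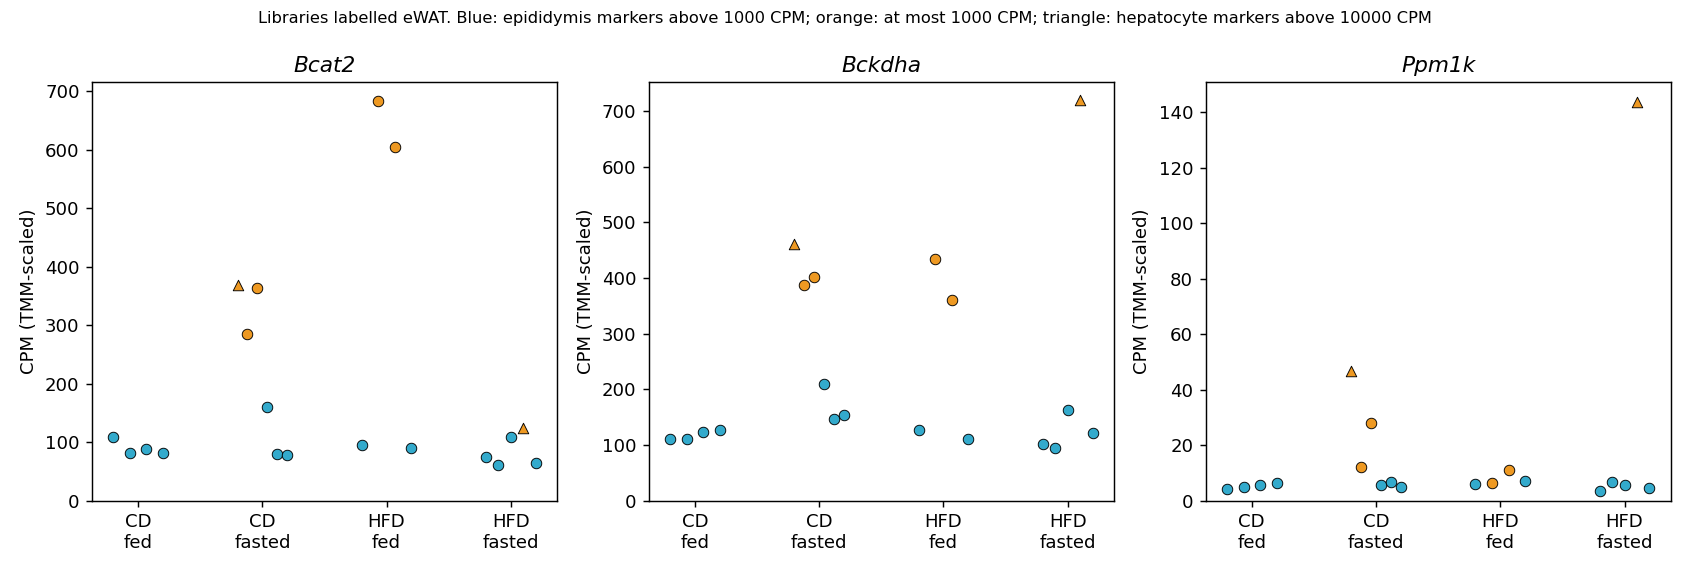
TMM-scaled CPM (vertical axis) of Bcat2, Bckdha and Ppm1k in each library labelled eWAT, by juvenile diet and feeding state; blue points had epididymis markers above 1000 CPM, orange at most 1000 CPM, and triangles mark hepatocyte markers above 10000 CPM. All CD fed points are blue, and the triangle in HFD fasted holds the highest Bckdha (721 CPM) and Ppm1k (144 CPM).

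For fasting and for juvenile diet, each averaged over the other, no member and no gene of the 16603 tested in eWAT passed in edgeR (0% called). At an unadjusted p under 0.05, Ppm1k was the only member in the fasting comparison (log2 1.92 ± 0.72 SE, unadjusted p = 0.0160, edgeR adjusted p = 0.550). Without HFD fasted replicate 4 that value was 0.62 ± 0.41 (edgeR adjusted p = 0.860). By DESeq2, 91 genes passed for fasting and 1 for juvenile diet, none of them a member. Within a single juvenile diet edgeR called no gene for fasting (0%), although 5 members after CD and 2 after HFD had an unadjusted p under 0.05. DESeq2 called Bckdhb after CD (log2 2.28) and Bcat2 after HFD (log2 -2.02). The share of all genes that DESeq2 called in these comparisons is not given here. The difference of the fasting responses, HFD minus CD, passed for Bcat2 alone (log2 -3.40 ± 0.85 SE, edgeR adjusted p = 0.0367), 1 of 10 where 8.41% of all genes passed and 5.82% in this direction. Behind it, mean Bcat2 went from 89.6 ± 13.1 CPM (SD, n = 4) in fed to 223 ± 134 CPM (n = 6) in fasted libraries after CD. After HFD the fed mean was 369 ± 320 CPM (n = 4) and the fasted mean 86.5 ± 28.2 CPM (n = 5). The median over the members was -1.41, beside 0.19 over all genes. Within the 13 epididymis-rich libraries alone the Bcat2 difference was -0.49 ± 0.42 (edgeR adjusted p = 0.692). It passed in 9 of the 19 fits that left out 1 library. Without HFD fasted replicate 4, Bckdha (-2.49 ± 0.64), Bckdhb, Dbt, Ivd and Hibadh passed as well, each at a negative value, which makes 6 members, where 17.6% of all 16475 genes tested in that fit passed and 12.2% in this direction.

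Between tissues, by label, quadriceps was higher than eWAT for 6 members and lower for 1, where 28.1% of all genes were higher and 54.9% lower (83.0% in all). Bckdk (log2 2.46 ± 0.10) and Dld (2.07 ± 0.19) differed most, followed by Bckdha (1.19 ± 0.21), Ivd (0.84 ± 0.19), Bcat2 (0.72 ± 0.21) and Hibadh (0.57 ± 0.19). These values rest on TMM scaling over all 39 libraries, under which the median over all genes was -0.64 and over the members 0.65. With scaling within each tissue, median Bckdk was 158 CPM in quadriceps and 73.9 CPM in eWAT. Median Hibadh was then 99.2 CPM in quadriceps and 112 CPM in eWAT, the opposite order. Aldh6a1 was lower in muscle (-0.39 ± 0.10), and Bckdhb, Dbt and Ppm1k were not called. Several of these values changed when only the 6 eWAT libraries poor in epididymis markers were set against muscle. Bckdk (2.79 ± 0.11) and Dld (1.17 ± 0.15) stayed higher in quadriceps and Aldh6a1 stayed lower (-0.37 ± 0.11). Bckdha came to 0.07 ± 0.10, Bckdhb to -1.39 ± 0.12, Dbt to -0.66 ± 0.14, Ppm1k to -0.91 ± 0.20, Hibadh to -0.49 ± 0.09, Bcat2 to -0.18 ± 0.09 and Ivd to -0.16 ± 0.10. Of these 7, all but Bckdha had a negative estimate, the direction of lower in muscle, and those of Bcat2 and Ivd were the smallest. A sign alone is not a call. By label, the median over all genes was negative as well. The share of all genes called in this fit is not given here. This fit weighted CD fasted, HFD fasted and HFD fed equally and gave CD fed no weight. Its only HFD fasted eWAT library was the liver-rich replicate 4, so each value rests in part on that library. The Ppm1k value changed sign without the liver-rich libraries. HFD fasted replicate 4 held 15.3 RPKM, while the median of the 6 was 2.14 RPKM against 1.92 RPKM in quadriceps. Set against the 4 epididymis-poor libraries that were not liver-rich, an alternative added after the data were seen, Ppm1k was higher in quadriceps (0.61 ± 0.22, edgeR adjusted p = 0.0141) and Hibadh was not called (-0.17 ± 0.11). In that fit Bckdhb (-1.14 ± 0.14), Dbt (-0.50 ± 0.15) and Aldh6a1 (-0.55 ± 0.12) were again lower in muscle, Bcat2 also passed as lower (-0.72 ± 0.10) and Bckdha as higher (0.42 ± 0.11), where 76.8% of all genes passed. By label, the Ppm1k difference went from 0.51 to 1.25 (edgeR adjusted p = 2.60e-06) when HFD fasted replicate 4 alone was left out.

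Bckdk and Dld each set the tissues apart by level in every library when scaled over all 39 libraries. The share of all genes that did so was not computed. Dld lay between 13.9 and 33.3 RPKM in quadriceps and reached at most 12.1 RPKM in epididymis-poor and 3.94 RPKM in epididymis-rich eWAT libraries. With scaling within each tissue Dld overlapped, at 9.04 to 21.5 RPKM in quadriceps and 3.38 to 19.2 RPKM in eWAT. Bckdk stayed apart under that scaling, at 38.8 to 49.8 RPKM in quadriceps and 6.00 to 29.4 RPKM in eWAT. The values that follow are again scaled over all 39 libraries. Bckdk lay between 56.8 and 78.5 RPKM in quadriceps, between 3.84 and 18.5 RPKM in the 6 epididymis-poor and between 6.41 and 13.9 RPKM in the 13 epididymis-rich eWAT libraries. Bckdhb went the other way in the epididymis-poor libraries, at 23.3 to 58.0 RPKM against 11.6 to 20.4 RPKM in quadriceps, again without overlap. The tissue difference in fasting response passed for no member in edgeR (2.73% of all genes passed; 2 members at an unadjusted p under 0.05), and Aldh6a1 came nearest (quadriceps minus eWAT, log2 0.68 ± 0.21 SE, edgeR adjusted p = 0.0676). Aldh6a1 passed that test in DESeq2 (adjusted p = 0.00661), under RLE scaling (edgeR adjusted p = 0.0337) and without the 2 liver-rich libraries (edgeR adjusted p = 0.0279).

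**Figure D5:**
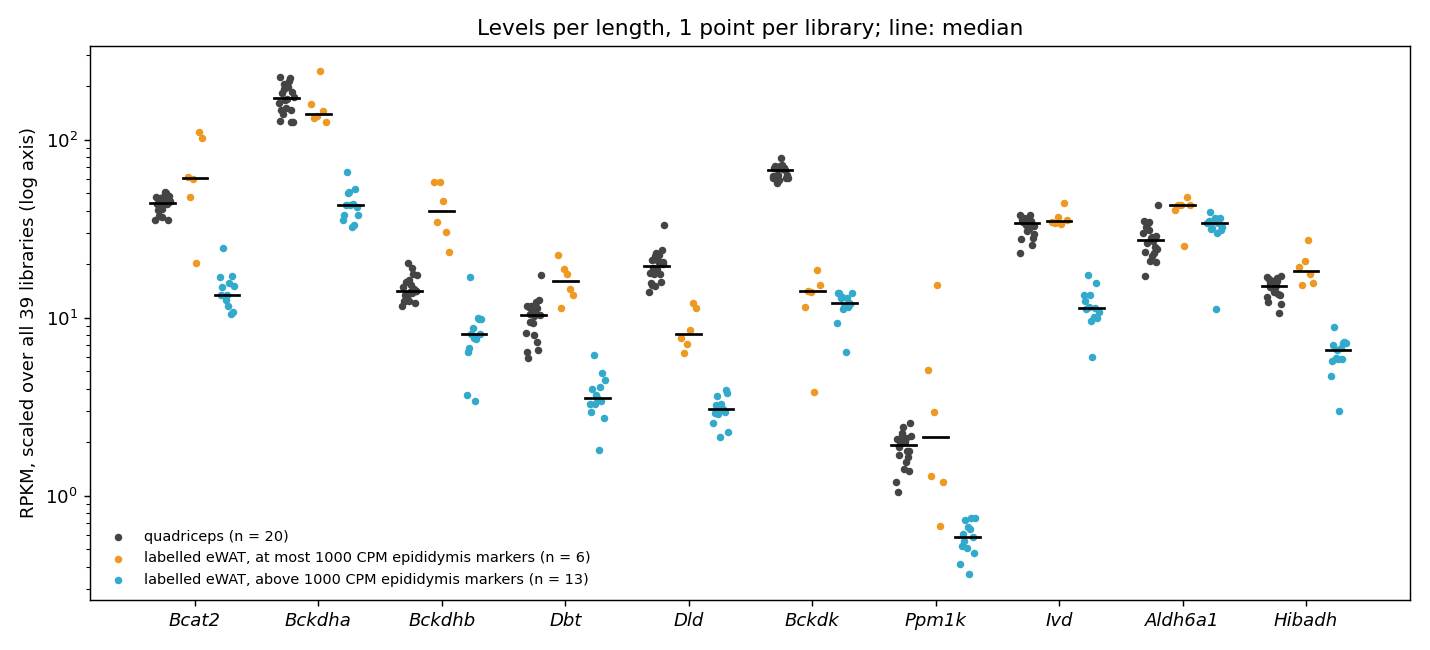
RPKM scaled over all 39 libraries (log axis) for each gene in quadriceps (black), libraries labelled eWAT with at most 1000 CPM of epididymis markers (orange) and those above (blue); points are libraries and lines medians. Bckdk lies at 56.8 RPKM or more in quadriceps and at 18.5 RPKM or less in all others, and Bckdhb is highest in the orange libraries.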

How the data were processed

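The deposited files hold 1 whole-number read count per Ensembl gene and library, made by the authors without normalization. The submitters' processing notes name TopHat2 2.1.0, Bowtie2 2.2.5, HTSeq 0.6.0 and GRCm38. Which tool did what, and the annotation release and strand setting of the counting, are not given in the labels or file headers. The 5 summary lines per file were left out. Identifiers were given symbols and positions from GENCODE release M21.

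Genes passed filterByExpr and were fitted within a tissue in edgeR 4.0.16 (TMM, robust quasi-likelihood, 1 mean per group, two-sided), with Benjamini-Hochberg adjustment over all tested genes at 0.05. Tissues were compared in 1 fit of 17083 genes. RPKM use exonic length. Markers were summed as CPM of unscaled libraries. Reads lack molecular identifiers, so counting error is not the whole error. The fits were tested on simulated data.

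The members always, Klf15, Slc25a44, listed genes past the threshold and the 8 most like the complex were named. Members, lists and tests were chosen with earlier results of these data known. Other listed genes named without a call were picked after their values were seen. DESeq2 1.42.0, RLE scaling, unfiltered genes, covariates, library subsets and leaving out each library were the alternatives. Values of 1 listed gene are not reported here.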

Additional observations from a re-analysis of the deposited data

Results flagged for a closer look

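Of 80 sets of values (10 members in 8 groups), 12 held a library whose gap to its nearest neighbour was large for the range of its group. Chance gives about 1 in 20 such sets, and the sets are not independent. In eWAT, HFD fasted replicate 4, the library with liver transcripts, was the highest of 5 for 6 members: Bckdha at 721 CPM, Bckdhb at 127 CPM, Dbt at 91.5 CPM, Dld at 48.9 CPM, Ppm1k at 144 CPM and Hibadh at 434 CPM. In quadriceps, CD fasted replicate 1 was the lowest of 6 for 3 members: Dbt at 17.9 CPM, Ppm1k at 4.67 CPM and Ivd at 83.0 CPM. HFD fasted replicate 6 was the highest of 6 for Dld at 79.2 CPM and for Aldh6a1 at 160 CPM. CD fed replicate 3 was the highest of 4 for Bckdhb at 17.7 CPM.

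The fasting response of Bcat2 in libraries labelled eWAT differed between juvenile diets (log2 -3.40, edgeR adjusted p = 0.0367). All 4 CD fed libraries were rich in epididymis transcripts, while 2 of 4 HFD fed ones were poor in them, and the part of this in the Bcat2 difference was not tested beyond the fit within epididymis-rich libraries (log2 -0.49).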

How the results depend on the processing

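In quadriceps the count of 4 members called for fasting was the same under RLE scaling, no filter, DESeq2 and both covariates, and ran from 3 to 5 with 1 library left out. In 1 fit of all 39 libraries it was 1, and after CD and after HFD the counts went from 3 and 4 to 0 (2 to 3 and 2 to 4 with 1 library left out). That fit shares the wider eWAT spread. Ppm1k turned to -0.041 there, and left-out libraries gave Ppm1k values from -0.070 to 0.11.

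In eWAT DESeq2 called 1 member after CD (Bckdhb), 1 after HFD and 1 for diet in fed mice (Bcat2 both times). The 39-library fit called 2, 2 and 1, and 1 for diet in fasted mice; the cause was not tested. For the diet by fasting difference 0 members passed without a filter, 6 in the 39-library fit and 0 in epididymis-rich libraries. The count was 5 without liver-rich libraries and 0 to 6 with 1 library left out. Counts in this section stand without the share of all genes called in each fit, and do not set the members against other genes.

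For the tissue difference in fasting response 1 member (Aldh6a1) passed under RLE scaling, under DESeq2 and without liver-rich libraries, and 0 to 1 with 1 library left out. The tissue difference in level called 7 to 9 with 1 library left out. Against epididymis-poor eWAT its sign turned for Bcat2 (-0.18), Dbt (-0.66), Ppm1k (-0.91), Ivd (-0.16) and Hibadh (-0.49). Without its liver-rich libraries too, it turned for Bcat2 (-0.72), Dbt (-0.50), Ivd (-0.087) and Hibadh (-0.17), and Ppm1k was at 0.61. Bckdhb turned to 0.93 against epididymis-rich eWAT, to 0.34 without liver-rich libraries, and ran from -0.11 to 0.27 without single libraries, with 0.27 when eWAT HFD fasted replicate 4 was left out. A window of 250 bases before to 50 after the start gave the same number of members for each motif.

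No paired analysis was possible because the labels give no replicate numbers that tie samples across groups. Ppm1k, at 4.13 to 10.2 CPM in fed quadriceps, had the lowest counts and the highest coefficient of biological variation of the members in muscle (0.208).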
